A study of Homo sapiens with 4 samples.

Results

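ERBB2 and 9 of its neighbours on the long arm of chromosome 17 (17q12 to 17q21) were followed in 2 ovarian cancer cell lines, HeyC2 and SKOV3. The 10 genes, MED1, CDK12, STARD3, TCAP, PNMT, PGAP3, ERBB2, MIEN1, GRB7 and ORMDL3, were taken by symbol from an expression table of 26506 genes, and each of them was listed for both lines. ERBB2 encodes HER2, a receptor tyrosine kinase that binds no known ligand itself and signals as a partner of EGFR, ERBB3 or ERBB4 into the PI3K-AKT and RAS-MAPK pathways. In part of breast, gastric and ovarian carcinomas the segment that holds ERBB2 is amplified, and its neighbours are then carried along in the same extra copies. SKOV3 is a widely used line known to carry such an amplification. DNA copy number was not measured in these libraries.

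Each line was sequenced as a control and as cells given a TET1 plasmid, giving 4 RNA-seq libraries with 1 library per condition. Cells received 3 µg of either an empty plasmid (the controls, whose genotype is given as Wild-type) or pCMV6/TET1 by lipofection, and both were kept in Geneticin at 400 µg/ml. TET1 is a dioxygenase that oxidises 5-methylcytosine and so takes part in DNA demethylation. The vector drives its insert from a viral promoter, and the labels do not say whether the selected cells were a pool or a clone. With 1 library per condition no difference below has a replicate check, and the folds describe these libraries.

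Expression was given as FPKM, a fragment count set to transcript length and to the size of the library, so levels can be compared between genes. Each TET1 column proved to be multiplied by a constant, 3.2344 in HeyC2 and 1.3456 in SKOV3, that made GAPDH equal to the control of its line (5417.35 and 2248.44 FPKM). FPKM values of the TET1 libraries are therefore given below with this constant removed. Differences are on the log2(FPKM + 1) scale for genes with a mean of at least 1 FPKM over the libraries compared. TET1 changes are the deposited values minus the median change over all genes of the line, which was 1.61 in HeyC2 and 0.59 in SKOV3. For TET1 changes the FPKM minimum was applied to the deposited values too, with the constant left in. The steps between low FPKM values corresponded to an estimated 6750000 to 7460000 fragments per library, and 15162 to 16941 genes were above 0. TET1 itself was at 0.20 FPKM in the HeyC2 control and 0.52 in its TET1 library, against 0.43 and 1.80 in SKOV3. In HeyC2 it thus stayed below 1 FPKM in both libraries, on about 14 and 33 fragments, and did not pass the FPKM minimum. The HeyC2 changes below therefore come from a TET1 library with little TET1 RNA. The epithelial keratin KRT8 and the Müllerian factor PAX8 were present in both controls (476 and 560 FPKM for KRT8, 128 and 74.6 for PAX8, HeyC2 first), while WT1 and MUC16 were at or near 0 in both. EPCAM (0.09 and 15.4 FPKM) and CDH1 (listed at 0, and 2.24 FPKM) were near 0 in HeyC2 only. KRT19 was at 0.62 and 255 FPKM, KRT7 at 290 and 1537, and KRT18 at 378 and 193. The mesenchymal genes of the marker list were all present in the HeyC2 control. VIM was at 7496 and 1223 FPKM, FN1 at 5557 and 32.6, CDH2 at 26.9 and 21.1, and ZEB1 at 22.7 and 9.14. Of 12 markers of blood, endothelial, muscle and neuroendocrine cells, 1 passed the FPKM minimum between the controls, the lysosomal gene CD68 at 56.2 and 12.7 FPKM.

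ERBB2 (chromosome 17, 37844167 to 37886679, plus strand, GRCh37) had the widest gap between the lines among the 10 on the log2(FPKM + 1) scale, although GRB7 had the wider one with 0.1 FPKM added in place of 1. It measured 20.1 FPKM in the HeyC2 control, 23.8 in HeyC2 with TET1, 1282 in control SKOV3 cells and 1464 in the TET1 library of that line. Both SKOV3 libraries stood far above both HeyC2 libraries. Such a lack of overlap is common by itself. Of 13088 genes with a mean of at least 1 FPKM over the 4 libraries, 46.3% had both SKOV3 values above both HeyC2 values. So had 9 of the 10 genes, all but ORMDL3. TCAP, PNMT and GRB7 were at or below 0.75 FPKM in HeyC2 and reached that mean through SKOV3 alone. Their place among the 9 is not counted as a result. Among all genes ranked by FPKM within a library, ERBB2 was number 29 in the SKOV3 control and number 3667 in the HeyC2 control. The control ratio was 63.8 in FPKM, with a 95% counting interval of 59.1 to 69.0, and the difference was 5.93 on the log2(FPKM + 1) scale. These intervals are exact Clopper-Pearson intervals on the estimated fragments, and they cover counting error only, not the spread between cultures. In bulk RNA, fewer expressing cells and less RNA per cell cannot be told apart.

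**Figure D1:**
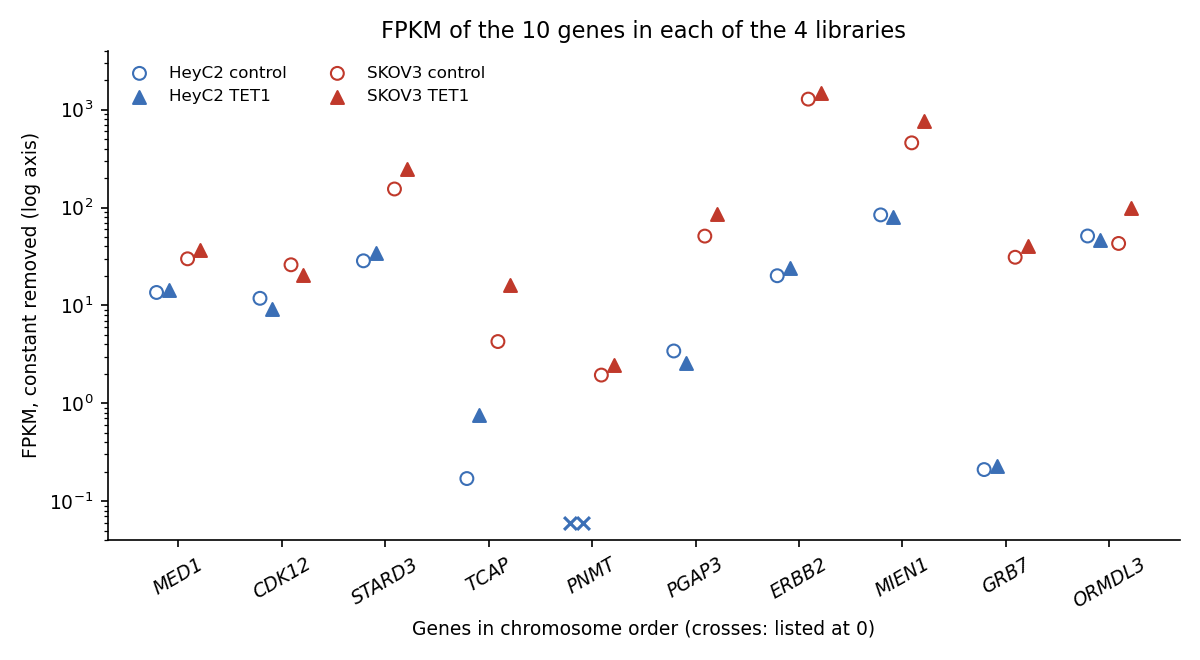
FPKM of the 10 genes in the 4 libraries (vertical axis, FPKM on a log scale, genes in chromosome order, TET1 libraries with the scale constant removed), 1 point per library, crosses for genes listed at 0. The SKOV3 points lie above the HeyC2 points for 9 genes in both conditions, and ERBB2 at 1282 and 1464 FPKM is the highest. ORMDL3 is the exception, with its 2 controls at 51.2 and 42.9 FPKM. TCAP, PNMT and GRB7 lie at or below 0.75 FPKM in HeyC2.

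The genes just beside ERBB2 showed the same order of the lines. GRB7 (37894180 to 37903544), which encodes an SH2-domain adaptor that binds activated HER2, was at 0.21 and 0.23 FPKM in HeyC2 control and TET1 and at 31.0 and 40.8 in SKOV3. HeyC2 held only about 3 GRB7 fragments in each library, so the control ratio of 148 had a counting interval of 50.2 to 719. PGAP3 (37827375 to 37853050, minus strand), which remodels the lipid of GPI anchors, was at 3.42 and 2.56 FPKM in HeyC2 and at 51.1 and 86.7 in SKOV3. Its control ratio was 14.9 (11.6 to 19.6).

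MIEN1 (37884749 to 37886785, minus strand), a small membrane-associated protein linked to cell migration, was the most abundant of the 10 in HeyC2 at 84.1 and 79.3 FPKM, and reached 458 and 766 FPKM in SKOV3. STARD3 (37793343 to 37820454, plus strand), a late endosomal cholesterol-binding protein, was at 28.5 and 34.02 FPKM in HeyC2 and at 155 and 249 in SKOV3. Their control ratios were close to each other, 5.45 (5.04 to 5.90) for MIEN1 and 5.42 (4.95 to 5.95) for STARD3, and far below that of ERBB2. Both were thus already well expressed in HeyC2, unlike GRB7 and PGAP3.

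The library kit does not mark strand, and some of these genes overlap. The canonical transcripts of ERBB2 and MIEN1 share 149 exon bases at their facing ends, 10.7% of the exon bases of MIEN1. The canonical transcripts of ERBB2 and PGAP3 share none, but 144 bases, 5.36% of the exon bases of PGAP3, are shared once all annotated basic transcripts are counted. The FPKM of MIEN1 and PGAP3 in SKOV3 could hold fragments of the far more abundant ERBB2, and how much of them it accounts for was not tested.

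TCAP and PNMT, which lie between STARD3 and PGAP3, belong to specialised tissues. TCAP (37821602 to 37822807), the titin cap protein of striated muscle, was at 0.17 and 0.75 FPKM in HeyC2 and at 4.27 and 16.1 in SKOV3. The HeyC2 control held about 1 TCAP fragment, so its control ratio of 25.1 had an interval of 4.10 to 1033. PNMT (37824234 to 37826728), the enzyme that turns noradrenaline into adrenaline, was listed at 0 in both HeyC2 libraries and at 1.94 and 2.48 FPKM in SKOV3, and did not pass the FPKM minimum between the controls. The other muscle and adrenergic genes did not accompany them. ACTA1, MYH7 and TH were listed at 0 in each of the 4 libraries, TTN did not exceed 0.14 FPKM, and DBH was listed at 0 in SKOV3 and at 1.57 FPKM in the HeyC2 control.

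MED1 and CDK12 form the centromeric end of the set, and they differed least among the 8 genes past 2-fold between the controls. MED1 (37560538 to 37607525, minus strand), a subunit of the Mediator complex, was at 13.6 and 14.3 FPKM in HeyC2 and at 29.9 and 36.6 in SKOV3. CDK12 (37617739 to 37723812, plus strand), a kinase of the RNA polymerase II tail, was at 11.8 and 9.23 FPKM in HeyC2 and at 26.0 and 20.6 in SKOV3. Their control ratios were 2.21 (2.03 to 2.40) and 2.201 (2.01 to 2.41), so both lay only just past the 2-fold limit. Centred on the median difference of all genes between the controls, 0.27, they came to 0.82 and 0.81 and no longer passed it.

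ORMDL3 (38077294 to 38083854, minus strand), a regulator of sphingolipid synthesis in the endoplasmic reticulum, marked the telomeric end and went the other way in the controls. It was at 51.2 FPKM in the HeyC2 control and 42.9 in the SKOV3 control, a ratio of 0.839 (0.752 to 0.936). In the TET1 libraries it was at 46.1 and 99.5 FPKM, a ratio of 2.16 (1.96 to 2.38). It was the single member whose order between the lines depended on which pair of libraries was compared.

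Between the controls, 9 of the 10 genes passed the FPKM minimum, and 8 of them were at least 2-fold higher in SKOV3, none was at least 2-fold lower, and ORMDL3 was neither. Their median difference was 2.40, against 0.27 over all 12488 genes tested. Over those genes 24.0% were at least 2-fold higher in SKOV3 and 13.9% at least 2-fold lower. The TET1 libraries of the lines, compared in the same way with the constants removed, gave a second measurement in libraries the controls do not share. Of all 13344 genes tested there 27.3% were at least 2-fold higher in SKOV3 and 11.1% lower. STARD3, PGAP3, ERBB2, MIEN1, ORMDL3, MED1 and CDK12, each above 1 FPKM in both lines, were at least 2-fold higher in SKOV3. TCAP, PNMT and GRB7, at or below 0.75 FPKM in HeyC2, passed the FPKM minimum through SKOV3 alone, and their higher values there are not counted as a result. The same holds for TCAP and GRB7 between the controls. The ERBB2 ratio between the TET1 libraries was 61.5 (57.1 to 66.3), within the counting error of the ratio between the controls. The ratio of MIEN1 in the TET1 libraries was 9.66 (8.92 to 10.5) that of PGAP3 33.9 (25.1 to 46.8) and that of STARD3 7.31 (6.71 to 7.98), each above its control ratio by more than the counting intervals.

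In chromosome order the higher genes formed an unbroken stretch. Going along the genes tested, 9 in succession were at least 2-fold higher in the SKOV3 control: MED1, CDK12, PPP1R1B, STARD3, TCAP, PGAP3, ERBB2, MIEN1 and GRB7. The stretch reached from 37560538 to 37903544, 343 kb, and held 8 of the 10 genes. PPP1R1B, TCAP and GRB7 passed the FPKM minimum through SKOV3 alone, so their direction is not counted as a result. Centred on the all-gene median, MED1 (0.82) and CDK12 (0.81) fell short of 2-fold. STARD3, PGAP3, ERBB2 and MIEN1 carry neither limit, and these values do not settle the ends of the stretch. PPP1R1B, a phosphatase inhibitor known from dopamine signalling, is the gene in it outside the set. It was listed at 0 in the HeyC2 control and at 0.26 FPKM with TET1, and measured 128 and 108 FPKM in SKOV3. NEUROD2, PNMT and MIR4728 lie within the stretch but did not pass the FPKM minimum. FBXL20, the neighbour before MED1, differed by -0.33 (3.66 FPKM in the HeyC2 control, 2.72 in the SKOV3 control), and GSDMB, the next gene tested after GRB7, by -0.70 (6.11 and 3.37 FPKM).

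Within the stretch the differences did not have one size. They ran from 1.08 for CDK12 and 1.09 for MED1 through 2.40 for STARD3 and 2.43 for MIEN1 to 3.56 for PGAP3, 4.73 for GRB7 and 5.93 for ERBB2, while PPP1R1B came to 7.01 from a level of 0. The genes at low level in HeyC2 carry a difference that the added 1 FPKM reduces: with 0.01 FPKM added instead, GRB7 came to 7.14 and TCAP to 4.57. Beyond the stretch but within 2 Mb of ERBB2, 7 of 45 genes tested were at least 2-fold higher and 7 at least 2-fold lower, with a median of 0.07. On the rest of chromosome 17, 19.7% of 695 genes were higher and the median was -0.01. The higher genes outside the stretch included DUSP14 (1.65), PSMD3 (1.35), CDC6 (2.27), GJD3 (2.67), TOP2A (2.72) and KRT19 (7.30). TOP2A, which encodes a DNA topoisomerase often considered together with ERBB2, was separated from GRB7 by genes that did not pass the limit. The lower genes were IGFBP4 (-7.02), which binds insulin-like growth factors, the cytokine gene CSF3 (-5.98), RARA-AS1 (-2.52) and the keratin and keratin-associated genes KRTAP2-3 (-5.80), KRTAP2-1 (-3.66), KRT34 (-2.11) and KRT15 (-1.79). GJD3 and KRT19 passed the FPKM minimum through SKOV3 alone. IGFBP4, CSF3, RARA-AS1, KRTAP2-3, KRTAP2-1 and KRT34 passed it through HeyC2 alone. The direction of these genes is not counted as a result.

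**Figure D2:**
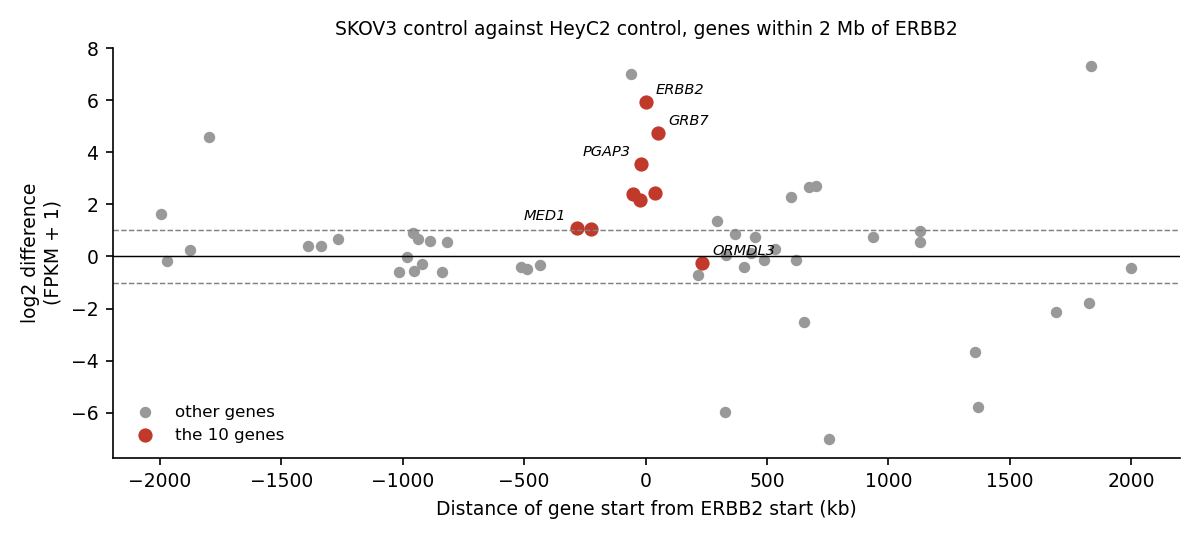
Difference between the controls, SKOV3 minus HeyC2 on the log2(FPKM + 1) scale (vertical axis), against the distance of each gene start from the ERBB2 start in kb (horizontal axis) for the 54 genes tested within 2 Mb. Red points are the 10 genes where tested, grey points the others, and dashed lines mark 2-fold. The raised points around 0 kb are the stretch from MED1 to GRB7, and FBXL20 and GSDMB on its sides lie near the zero line.

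Runs of this kind occurred elsewhere. Over the genome 1908 runs of successive genes were at least 2-fold higher in the SKOV3 control. Of these 7 held 9 genes or more, the run from MED1 to GRB7 among them, and the longest held 13. Genes that passed the FPKM minimum through SKOV3 alone are included in these runs too. Runs that were at least 2-fold higher in the HeyC2 control numbered 1261, and the longest held 7 genes.

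With TET1, ERBB2 stayed close to the median change of its line. Its change relative to that median was 0.28 in HeyC2 and 0.03 in SKOV3, and its FPKM ratio of TET1 to control was 1.19 (1.07 to 1.32) in HeyC2 and 1.14 (1.13 to 1.16) in SKOV3. GRB7 in SKOV3 changed by 0.21 relative to the median and MED1 by 0.11. In HeyC2 GRB7 and PNMT were below the FPKM minimum.

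In HeyC2, 8 of the 10 genes were tested, and none was at least 1.5-fold higher or lower relative to the median, where 13.0% of 12993 genes were higher and 12.9% lower. Their changes ran from -0.54 for PGAP3 to 0.30 for STARD3, with a median of -0.03. With the scale constant removed before the pseudocount was added, PGAP3 came to -0.37 and STARD3 to 0.19. The lowest was then CDK12 at -0.38. PGAP3 went from 3.42 to 2.56 FPKM on 64 and 44 fragments, a ratio of 0.749 whose interval of 0.498 to 1.12 includes no change. TCAP in HeyC2 rested on about 1 and 4 fragments. It passed the FPKM minimum only on the deposited values, 0.17 and 2.43 FPKM. With the constant removed, at 0.17 and 0.75 FPKM, it did not pass and was not tested.

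In SKOV3, all 10 genes were tested, of which 3 were at least 1.5-fold higher and none at least 1.5-fold lower. Over 13339 genes, 20.6% were higher and 17.9% lower. TCAP had the widest change at 1.52, from 4.27 to 16.1 FPKM, a ratio of 3.77 (2.38 to 6.21). ORMDL3 followed at 1.03, from 42.9 to 99.5 FPKM, a ratio of 2.32 (2.10 to 2.56). PGAP3 was just inside the limit at 0.59, and MIEN1 just outside it at 0.58. STARD3 changed by 0.52, and PNMT, on 11 and 13 fragments, by -0.03. With the scale constant removed before the pseudocount was added, PGAP3 came to 0.56 and left the limit, and TCAP and ORMDL3 stayed at 1.51 and 1.001.

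CDK12 was the one gene of the 10 whose FPKM ratio of TET1 to control lay below 1 by more than the counting interval in both lines. It went from 11.8 to 9.23 FPKM in HeyC2, a ratio of 0.782 (0.696 to 0.877), and from 26.0 to 20.6 FPKM in SKOV3, a ratio of 0.792 (0.733 to 0.856). Relative to the line's median it changed by -0.34 and -0.50, which did not reach 1.5-fold in either line. How many of all genes lay below 1 in this way in both lines was not counted. The decrease is therefore not read as particular to CDK12. The SKOV3 comparison uses the same SKOV3 control as the comparison of the controls, so an unusually high or low value in that library would enter both.

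**Figure D3:**
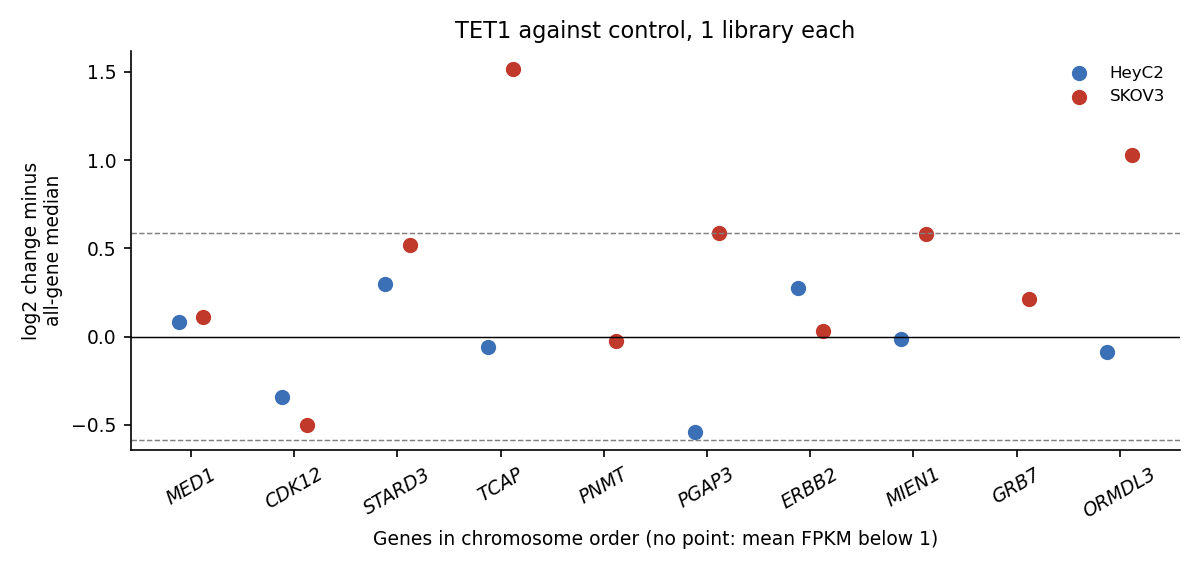
Change of each of the 10 genes with TET1 relative to the all-gene median of its line (vertical axis, log2 of FPKM + 1), HeyC2 in blue and SKOV3 in red, genes in chromosome order, 1 library against 1, dashed lines at 1.5-fold. TCAP (1.52) and ORMDL3 (1.03) in SKOV3 lie clear of the line, PGAP3 (0.59) and MIEN1 (0.58) lie on it, and no HeyC2 point passes it.

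The share of the 10 genes that was higher in SKOV3 with TET1, 3 of 10, was close to that of their surroundings. On the rest of chromosome 17, 35.8% of 732 genes were at least 1.5-fold higher and the median was 0.35, and within 2 Mb outside the stretch 16 of 42 genes were higher and 4 lower. In the stretch from MED1 to GRB7, 2 of 9 genes were higher and the median was 0.21. GSDMB, the neighbour of ORMDL3 that encodes a gasdermin, went from 3.37 to 36.96 FPKM (2.95 relative to the median), and FBXL20 from 2.72 to 8.41 FPKM (1.14). KRT19 went from 255 to 0.46 FPKM in the same libraries. In HeyC2 4 of 53 genes within 2 Mb were higher and 5 lower. GSDMB and FBXL20 there changed by 0.57 and -0.13.

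**Figure D4:**
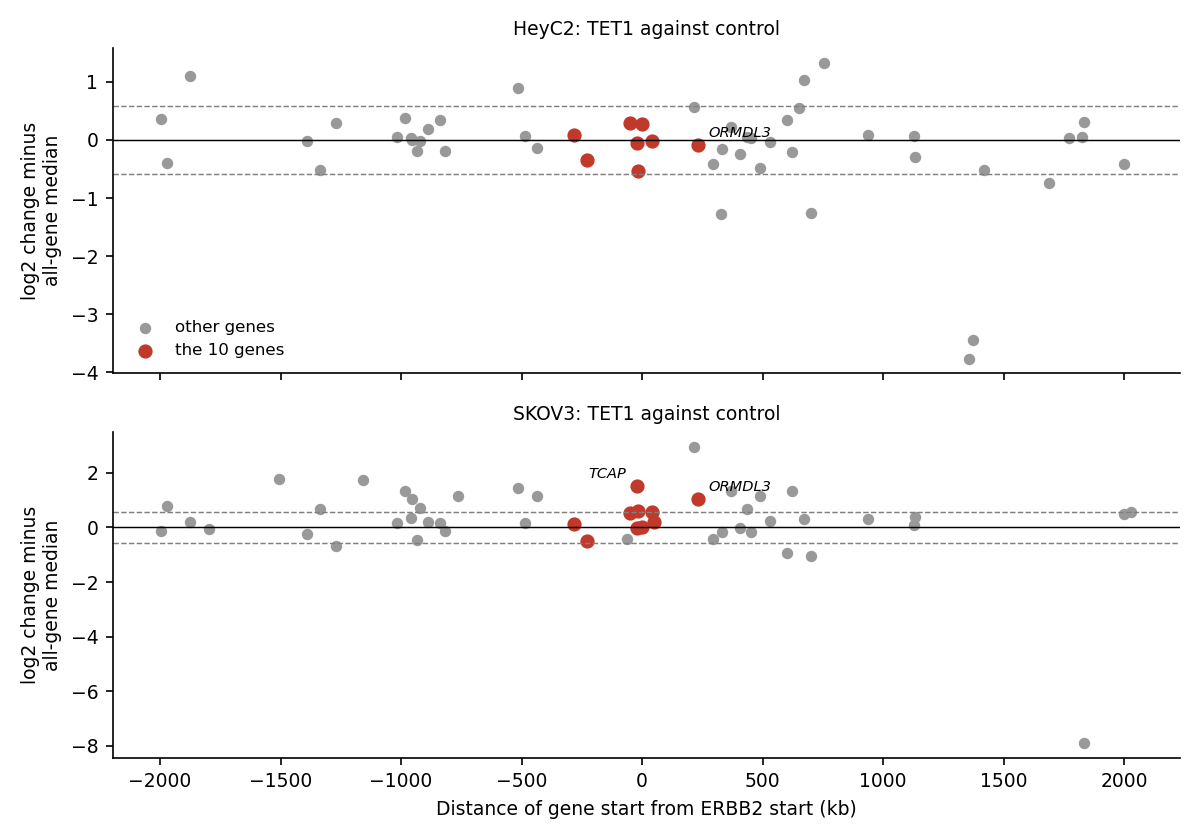
Change with TET1 relative to the all-gene median (vertical axes, log2 of FPKM + 1) against the distance of the gene start from the ERBB2 start in kb, HeyC2 above and SKOV3 below, on different vertical scales. Red points are the 10 genes where tested, grey points other genes, and dashed lines mark 1.5-fold. In SKOV3 the highest grey point, beside ORMDL3, is GSDMB at 2.95, and the lowest is KRT19 at -7.89.

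TET1 acts on methylated cytosine, mostly at CpG, so the start regions of the genes were read for CpG. RefSeq windows of the 250 bases before each start (GRCh38.p14) were found for 7 of the 10 genes, 9 windows in all. GRB7, TCAP and PNMT had no window. The windows held 11 CpG (PGAP3) to 27 CpG (1 of the 3 windows of ORMDL3, the others with 13 and 19), where the median over 35116 windows was 11. CDK12 had 18, MED1 20, STARD3 21, ERBB2 23 and MIEN1 25. No methylation values were analysed here. The ERBB2 window lies before 1 of the starts of that gene. The ORMDL3 window with 27 CpG is shown because ORMDL3 had the widest change in SKOV3 among the genes matched. In HeyC2 this was PGAP3 on the deposited values and CDK12 with the constant removed. The STARD3 window is shown because it holds the AP-2 match given below. The ORMDL3 and STARD3 windows are printed on the minus and plus strand with each CpG in capitals, chr17:39927602-39927851 and chr17:39636894-39637143.
ORMDL3: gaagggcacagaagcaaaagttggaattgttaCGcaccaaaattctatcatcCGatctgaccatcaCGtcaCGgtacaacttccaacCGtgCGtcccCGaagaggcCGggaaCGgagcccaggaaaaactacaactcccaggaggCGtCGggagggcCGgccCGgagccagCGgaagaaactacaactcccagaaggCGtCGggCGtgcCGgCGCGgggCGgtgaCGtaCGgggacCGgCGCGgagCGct
STARD3: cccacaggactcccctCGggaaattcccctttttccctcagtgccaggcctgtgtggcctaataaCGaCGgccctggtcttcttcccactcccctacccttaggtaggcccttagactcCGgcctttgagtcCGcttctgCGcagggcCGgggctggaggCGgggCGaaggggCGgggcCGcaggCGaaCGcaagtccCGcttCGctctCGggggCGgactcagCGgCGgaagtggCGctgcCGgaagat

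The RefSeq starts of PGAP3 and ERBB2 used here point away from each other with 36 bases between them, chr17:39688058-39688093 on GRCh38.p14. Other annotated starts of these genes lie elsewhere, and on GRCh37 the gene models overlap. The stretch is shown on the plus strand because it lies between these starts, and capitals mark the motif CCGGAAGT of the ETS family, searched on both strands.
PGAP3-ERBB2: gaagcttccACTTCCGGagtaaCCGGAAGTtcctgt
The motif stands there in both directions, 2 matches, and 3.42% of all 35116 windows held at least 1. GCCNNNGGC, an AP-2 motif, was in 19.8% of all windows and matched once in the 9 windows of the 7 genes, in STARD3, and TATAAA was in 10.7% and in none of those 9. A match is a description of the letters. In SKOV3 with TET1 the genes on the sides of this stretch changed by 0.59 (PGAP3) and 0.03 (ERBB2).

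The partners of HER2 differed in order between the lines. EGFR was at 86.8 and 72.8 FPKM in HeyC2 (control and TET1) and at 45.8 and 22.4 in SKOV3. ERBB3 was at 0.07 and 0.17 FPKM in HeyC2 and at 1.14 and 1.91 in SKOV3, and ERBB4 was listed at 0 and 0.01 in HeyC2 and at 1.02 and 2.79 in SKOV3. So ERBB2 was the most abundant of the 4 receptors in SKOV3 and EGFR in HeyC2, in both conditions. In the control comparison EGFR differed by -0.91, short of 2-fold, and ERBB3 and ERBB4 were below the FPKM minimum.

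Between the controls the ligands split by gene. Of 11 ligands listed, 7 were tested, 4 were at least 2-fold higher in SKOV3 and 3 at least 2-fold lower, with a median of 1.33, where 24.0% of all genes were higher and 13.9% lower. NRG1 (2.54, from 5.18 to 35.0 FPKM), EREG (1.87), BTC (1.74) and AREG (1.33) were among the higher ones, and NRG2 (-2.97) and HBEGF (-1.97) among the lower. EREG (listed at 0) and BTC (0.22 FPKM in the HeyC2 control) passed the FPKM minimum through SKOV3 alone. NRG2 (0.45 FPKM in the SKOV3 control) passed it through HeyC2 alone. The counts and the median include EREG, BTC and NRG2, whose direction is not counted as a result. NRG1 encodes the ligand of ERBB3 and ERBB4. Of the adaptors and the PI3K and RAS-MAPK steps, 5 of 22 were higher and 2 lower, with a median of 0.46, beside 24.0% and 13.9% of all genes, so the share of higher ones was near that of all genes. PIK3R1 (1.38), NRAS (13.7 to 32.8 FPKM) and HRAS (26.0 to 61.1 FPKM) were among the higher, and PIK3CA (-1.21) was among the lower.

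None of the 11 inhibitors and feedback genes was at least 2-fold higher in the SKOV3 control, and 5 were lower, with a median of -0.83, beside the same 24.0% and 13.9%. SPRY2 differed by -3.15 (87.5 to 8.94 FPKM), SPRY4 by -2.96 and DUSP6 by -2.18, all 3 known as feedback targets of ERK signalling. SPRED1 (-1.59) and SOCS5 (-1.26) were lower too. Among 6 transcription factors tested that are known at the ERBB2 promoter, ELF3 (4.36) and TFAP2A (3.51) were higher, and TFAP2C (-5.54) and ETV4 (-2.47) were lower. TFAP2C was at 50.3 FPKM in the HeyC2 control and 0.10 in the SKOV3 control, so these AP-2 genes stood in opposite order in the lines. ELF3 (0.14 FPKM in the HeyC2 control) and TFAP2A (0.89) passed the FPKM minimum through SKOV3 alone, and TFAP2C through HeyC2 alone. The direction of ELF3, TFAP2A and TFAP2C is therefore not counted as a result.

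**Figure D5:**
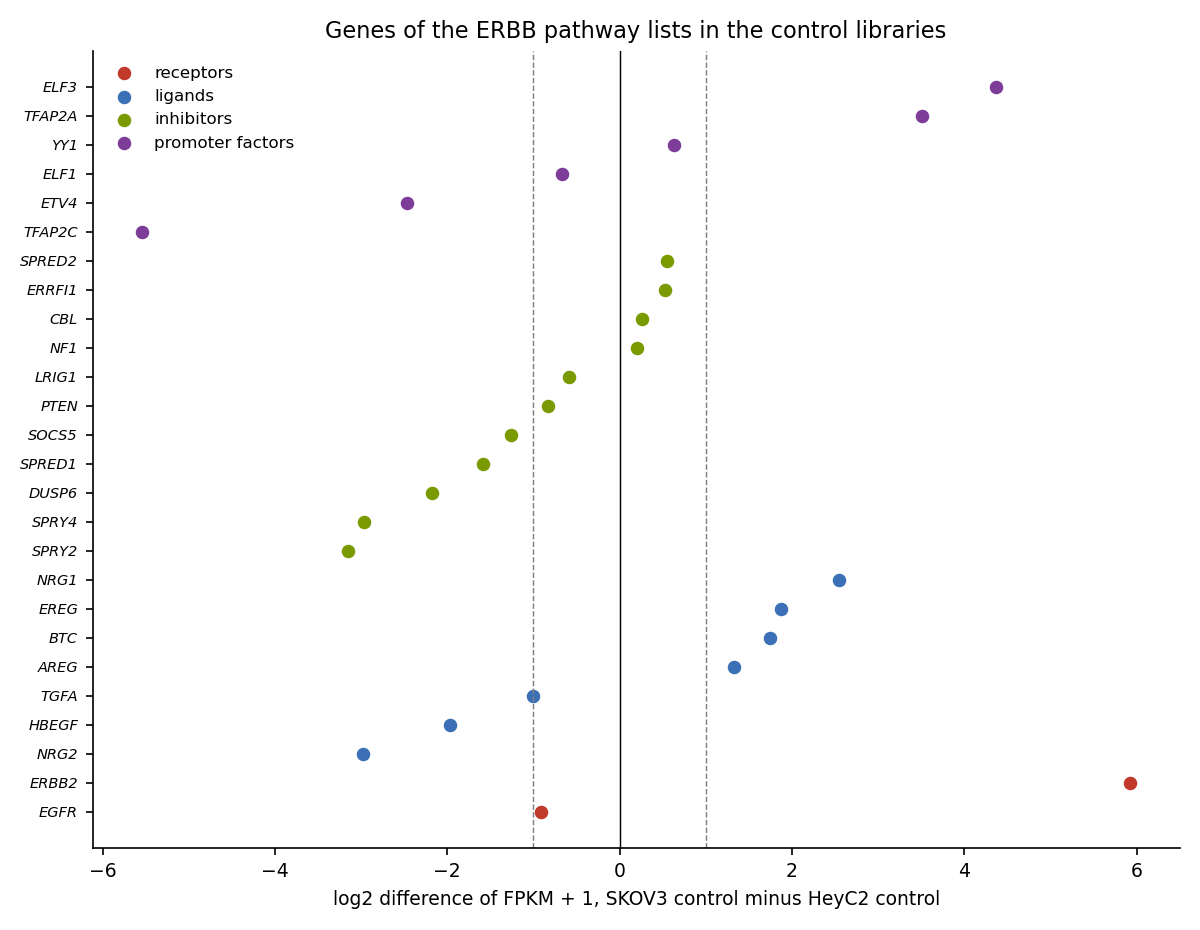
Difference between the controls, SKOV3 minus HeyC2 on the log2(FPKM + 1) scale (horizontal axis), for receptors, ligands, inhibitors and promoter factors with a mean of at least 1 FPKM, 1 point per gene and dashed lines at 2-fold, the signalling steps not drawn. ERBB2 at 5.93 lies farthest to the right, the inhibitors and feedback genes reach no higher than 0.55, and TFAP2C lies farthest to the left, at -5.54.

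With TET1 in SKOV3, 4 of 7 ligands tested were at least 1.5-fold lower relative to the median and none higher, with a median of -1.02, where 17.9% of all genes were lower and 20.6% higher. EREG (-2.46, 2.66 FPKM to listed at 0), NRG1 (-1.46, 35.0 to 13.9 FPKM), AREG (-1.31) and TGFA (-1.02) were those 4. EREG passed the FPKM minimum through the control alone, so its direction is not counted as a result. Of the receptors EGFR was lower (-1.17) and ERBB4 higher (0.65). Among the signalling steps AKT1 (-0.83), HRAS (-0.63) and PTPN11 (-0.60) were lower. LRIG1 (0.89) and SOCS5 (0.67) were higher among the inhibitors and SPRY4 (-1.24) lower. ELF3 (1.10) and ETV4 (0.76) were higher among the promoter factors, and TFAP2A (-0.62) and YY1 (-0.60) lower.

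The same lists were read in HeyC2, where 13.0% of all genes were higher and 12.9% lower. TGFA (0.71) and NRG2 (-1.87) were called among 5 ligands. SRC (0.84) and PIK3R1 (-0.98) were among those called of 22 signalling steps. LRIG1 (-1.40) was called among 11 inhibitors, and TFAP2A (-0.77) and ETV4 (-0.70) among 5 promoter factors. TFAP2A rested on about 20 and 15 fragments there. With the scale constant removed before the pseudocount was added it came to -0.18, short of the limit. At 0.89 and 0.74 FPKM with the constant removed, TFAP2A was also below the FPKM minimum. Neither tested receptor, ERBB2 or EGFR, was called.

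The genes whose profile over the 4 libraries was most like that of ERBB2 lay on other chromosomes. Likeness was the root mean square distance between centred log2(FPKM + 1) profiles, ranked over 9450 genes with a mean of at least 5 FPKM. PALM on chromosome 19 was nearest (0.083), followed by HLA-F on chromosome 6 (0.111), CYP1B1 on chromosome 2 (0.174), C1orf233 on chromosome 1 (0.202) and VCAN on chromosome 5 (0.202). PALM was listed at 0 and 0.06 FPKM in HeyC2 and at 57.0 and 72.1 in SKOV3. HLA-F, CYP1B1, C1orf233 and VCAN did not exceed 0.76 FPKM in HeyC2 either, so all of these passed the minimum through SKOV3 alone. At such values the added 1 FPKM sets the size of the step between lines. Their match to ERBB2 thus depends on the pseudocount and is not counted as a result. The ranks of GRB7 and TCAP below have the same limit. Of the neighbours GRB7 came nearest, at rank 26 (0.509), then PGAP3 at rank 105, MIEN1 at 281, STARD3 at 319, TCAP at 325, MED1 at 1444, CDK12 at 1758 and ORMDL3 at 4180. With 4 libraries from 2 lines such a ranking mainly orders genes by their gap between the lines.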

How the data were processed

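RNA was sequenced from 4 libraries (control and TET1 of HeyC2 and SKOV3) as paired reads of 150 bases. Per the submitters' processing notes, reads were aligned to hg19 with Bowtie2 2.2.6 and quantified with RSEM 1.2.17, and the authors deposited FPKM per gene, 1 table per line. The authors' TET1 columns had been multiplied by a constant matching GAPDH, which was recovered because 100% of values below 40 FPKM lay on a grid. From these values log2(FPKM + 1) differences were computed with Python 3.11.15, numpy 2.4.6 and pandas 2.3.3, and drawn with matplotlib 3.10.9. Genes past 2-fold (lines) or 1.5-fold (TET1, minus the line's median) were called, without tests, as there was 1 library per condition. Fragments were estimated from the steps of low FPKM, and 95% intervals came from SciPy 1.17.1. Positions came from GENCODE 44 on GRCh37 for 23593 symbols (89.01%). The 10 genes and the lists were chosen with earlier results of these data known. Named genes were the 10, called pathway genes (at most 6 per list), called genes within 2 Mb, the flanking genes and the 5 nearest profiles, and some genes that the rule names are not reported here. In data simulated for TET1 against control in each line, over 26506 genes, 200 of 200 planted changes and the planted constant of 2.37 were recovered. The planted changes were larger than 2-fold, lay in genes of at least 5 FPKM and carried counting noise only. Their recovery therefore does not bear on changes near 1.5-fold, on genes at lower levels or on the spread between cultures. Alternatives covered pseudocounts, FPKM minimums, scaling, centring and thresholds.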

Additional observations from a re-analysis of the deposited data

Results flagged for a closer look

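A set of 4 genes of the lists moved past 1.5-fold in opposite directions with TET1 in the lines, each from 1 library per condition, and the difference was not tested. Over all genes tested, 13.0% were higher and 12.9% lower in HeyC2, and 20.6% higher and 17.9% lower in SKOV3. The share of all genes that moved in opposite directions was not computed, so the count is not read as a result. ETV4 changed by -0.70 relative to the median in HeyC2 (44.6 to 26.1 FPKM) and by 0.76 in SKOV3 (7.22 to 14.8 FPKM). LRIG1, which lowers the level of ERBB receptors, changed by -1.40 in HeyC2 (4.72 to 1.73 FPKM) and by 0.89 in SKOV3 (2.82 to 7.16 FPKM). TGFA changed by 0.71 in HeyC2 (26.5 to 42.1 FPKM) and by -1.02 in SKOV3 (12.7 to 6.82 FPKM). KRT7, an epithelial keratin from the marker list, changed by 2.04 in HeyC2 (290 to 1125 FPKM) and by -6.24 in SKOV3 (1537 to 22.0 FPKM). The 10 genes around ERBB2 could not be among them, because none of them passed 1.5-fold in HeyC2.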

How the results depend on the processing

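Centred on the all-gene median, the control difference of ERBB2 was 5.66 and the median of the set 2.13. Between the TET1 libraries, an alternative chosen after seeing the data, the median was 3.05, with 3 genes tested through SKOV3 alone. In HeyC2 with TET1, 1 gene of the set (TCAP) was higher with a pseudocount of 0.1 and 1 with 0.01, and 1 (PGAP3) was lower with a minimum of 5 FPKM. Without the FPKM minimum, which moves the all-gene median, 7 were higher and 1 lower, the median was 0.92 and ERBB2 1.27. Not centred, 8 were higher, the median was 1.58 and ERBB2 1.89. In SKOV3 with TET1, without the minimum 7 were higher, the median was 0.88 and ERBB2 0.54. Not centred, 8 were higher, the median was 0.96 and ERBB2 0.62. The count of genes higher there was 2 with either smaller pseudocount, with TPM, upper-quartile scaling, the constant removed or a 2-fold threshold, and 4 with a minimum of 5 FPKM. No called value changed sign, but values near 0 did: ERBB2 in SKOV3 was -0.04 with a pseudocount of 0.01 or with TPM. No paired analysis was possible because each condition had 1 library. Depth limits GRB7, TCAP and PNMT, which rest on 0 to 4 fragments in each HeyC2 library.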

Other observations

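Another stretch on 17q12, chosen after its values were seen, held 12 successive genes that were at least 2-fold higher in the SKOV3 control than in the HeyC2 control, from TBC1D3G to DUSP14. Its genes differed by 1.06 (TADA2A) to 2.90 (LHX1) on the log2(FPKM + 1) scale, ACACA, which encodes the first enzyme of fatty acid synthesis, by 1.67, and AATF by 1.39. It is separated from the stretch around ERBB2 by genes near or below the limit, SYNRG at -0.17 and DDX52 at 0.27 among them. In the HeyC2 control TBC1D3G was listed at 0, LHX1 was at 0.33 FPKM and PIGW at 0.78. These genes passed the FPKM minimum through SKOV3 alone, and their direction is not counted as a result.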
